A study of Homo sapiens with 12 samples.

Results

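The S100 genes encode a family of small calcium-binding proteins, and 10 of them were followed here across 2 human prostate cancer cell lines sorted by the brightness of a green fluorescent reporter. They were taken by symbol from the deposited table and are S100A2, S100A3, S100A4, S100A6, S100A10, S100A11, S100A13, S100A14, S100A16 and S100P, 10 of its 18950 genes. RNA sequencing covered 12 libraries, 3 from GFP high and 3 from GFP low cells of each line, DU145 and PC3. GFP high cells were the brightest 10% of a line and GFP low cells the dimmest 10%, taken by the submitters as cells with active and inactive Wnt/β-catenin signaling. DU145 and PC3 are established lines derived from metastases of prostate cancer, both were grown in DMEM with 10% fetal serum, and the labels give no treatment beyond the sort. The sources used here do not say which construct drives GFP, nor whether replicate libraries stem from separate cultures or sorts. The p-values therefore weigh differences against the spread of these libraries alone, which may be technical.

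S100 proteins carry EF-hand calcium sites and mostly work as dimers that change shape when calcium binds and then attach to target proteins such as annexins, cytoskeletal motors and p53. Several also leave the cell by routes outside the usual secretory pathway and act on surface receptors such as RAGE. Most of the family lies in a cluster on the long arm of chromosome 1, within and beside the epidermal differentiation complex, and several members are studied in cancers for their links to motility and invasion.

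Levels are given as CPM, which are counts scaled to the size of each library; they are the deposited log2 values taken out of the log2 scale, with an offset of 0.5 counts. The libraries held between 13453614 and 21528810 estimated counts. Of the 10 members, 7 passed the minimum of 1 CPM in at least 3 of the 12 libraries and entered the test over 12527 genes, and S100A4, S100A14 and S100P did not. LEF1, a transcription factor gene that is itself a Wnt target, was higher in GFP high cells of both lines (log2 fold change 1.87 ± 0.36 in DU145 and 1.67 ± 0.36 in PC3, limma adjusted p = 0.00508 and 0.0106), although leaving out PC3 GFP high replicate 1 ended the PC3 call (1.56, adjusted p = 0.0557). It was the 1 gene of 6 Wnt pathway genes above the minimum that passed in either line, and the medians of the 6 were -0.20 in DU145 and -0.11 in PC3. The epithelial keratin genes KRT8 and KRT18 were detected in both lines, whereas 4 of the 6 epithelial markers examined (KRT19, EPCAM, CDH1 and CLDN7) and 5 of the 6 prostate luminal markers lay below the minimum. KRT8 was lower in GFP high cells of both lines, with log2 fold changes of -0.66 ± 0.10 in DU145 and -0.53 ± 0.10 in PC3 (limma adjusted p = 0.00152 and 0.0055). KRT18 was lower in DU145 (-0.52 ± 0.12, adjusted p = 0.0121), a call lost without GFP high replicate 1, GFP high replicate 2 or GFP low replicate 3. In PC3, KRT18 was not called (-0.13 ± 0.12, adjusted p = 0.593). Its PC3 means were 369 and 409 CPM in the high and low sorts, above those of KRT8 (18.1 and 26.1 CPM). Marker genes of other cell types were near 0: summed over the lists, fibroblast markers reached at most 3.75 CPM, immune markers 1.22 CPM and endothelial markers 1.21 CPM in any library. Fibroblast markers summed to 2.98 to 3.75 CPM in PC3 GFP high against 0.903 to 1.98 CPM in PC3 GFP low libraries. COL3A1 held most of the PC3 GFP high sum, at 2.65 ± 0.56 CPM against 0.0475 ± 0.0313 CPM in PC3 GFP low cells. It was called higher (log2 fold change 5.97 ± 0.74, limma adjusted p = 0.000175). COL3A1 passed the minimum through the PC3 GFP high libraries alone, since its means in the DU145 sorts were 0.0348 and 0.0722 CPM. It was thus tested only because that group was high, and its p-value does not allow for this. COL1A1 went the other way, at 0.647 ± 0.167 against 1.10 ± 0.48 CPM, and did not pass (-0.71, adjusted p = 0.56). COL1A2 and LUM had 0 counts in both groups. The part of fibroblast markers in the S100 results was not tested.

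Some libraries stood apart within their group. The number of genes at 0 counts was 3495 and 3491 in PC3 GFP low replicates 2 and 3, against 4819 in PC3 GFP low replicate 1 and 4577 to 4771 in the PC3 GFP high libraries. Among the S100 genes, DU145 GFP high replicate 3 had the highest level of its group for 7 of 7 genes above the minimum, and PC3 GFP low replicate 2 and PC3 GFP high replicate 2 had the highest of theirs for 6 of 7. DU145 GFP low replicate 2 had the lowest level of its group for 7 of 7, and PC3 GFP high replicate 3 and PC3 GFP low replicate 3 for 6 of 7.

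In PC3, 6 of the 7 S100 genes above the minimum fell in GFP high cells and 0 rose, whereas in DU145 1 of 7 fell and 0 rose by limma. At an unadjusted p under 0.05 the counts were 6 in PC3 and 2 in DU145, all lower, beside 2832 and 5389 of all 12527 genes. Voom on the estimated counts called 6 and 1, beside 10.1% and 26.1% of all genes. Over all genes tested, 9.44% were called in PC3, 4.17% higher and 5.27% lower, and 27.1% in DU145, 13.1% higher and 13.9% lower. The median log2 fold change of the 7 genes was -0.65 in PC3, where the median of all genes was -0.02, and -0.01 in DU145, where it was -0.01. In PC3, every GFP high library lay below every GFP low library for 6 of the 7, and 16.4% of all genes were separated in that direction. In DU145 this held for 2 of the 7 (S100A10 and S100A11), against 22.6% of all genes. In neither line did a member have every GFP high library above every GFP low library, against 14% of all genes in PC3 and 17.9% in DU145. Summed over the 7 genes, the level was 907 ± 31 CPM in PC3 GFP high and 1554 ± 236 CPM in PC3 GFP low cells (SD, n = 3 each). In DU145 the same sum was 1427 ± 196 CPM in GFP high cells and 1620 ± 65 CPM in GFP low cells. S100A6 made up 16.3 ± 1.6% of that sum in PC3 GFP high and 25.8 ± 0.9% in PC3 GFP low cells, and 21.9 ± 1.4% in DU145 GFP high and 18.9 ± 0.9% in DU145 GFP low cells. In RNA from many cells, a lower share of cells that express a gene and less of its RNA per cell cannot be told apart.

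**Figure D1:**
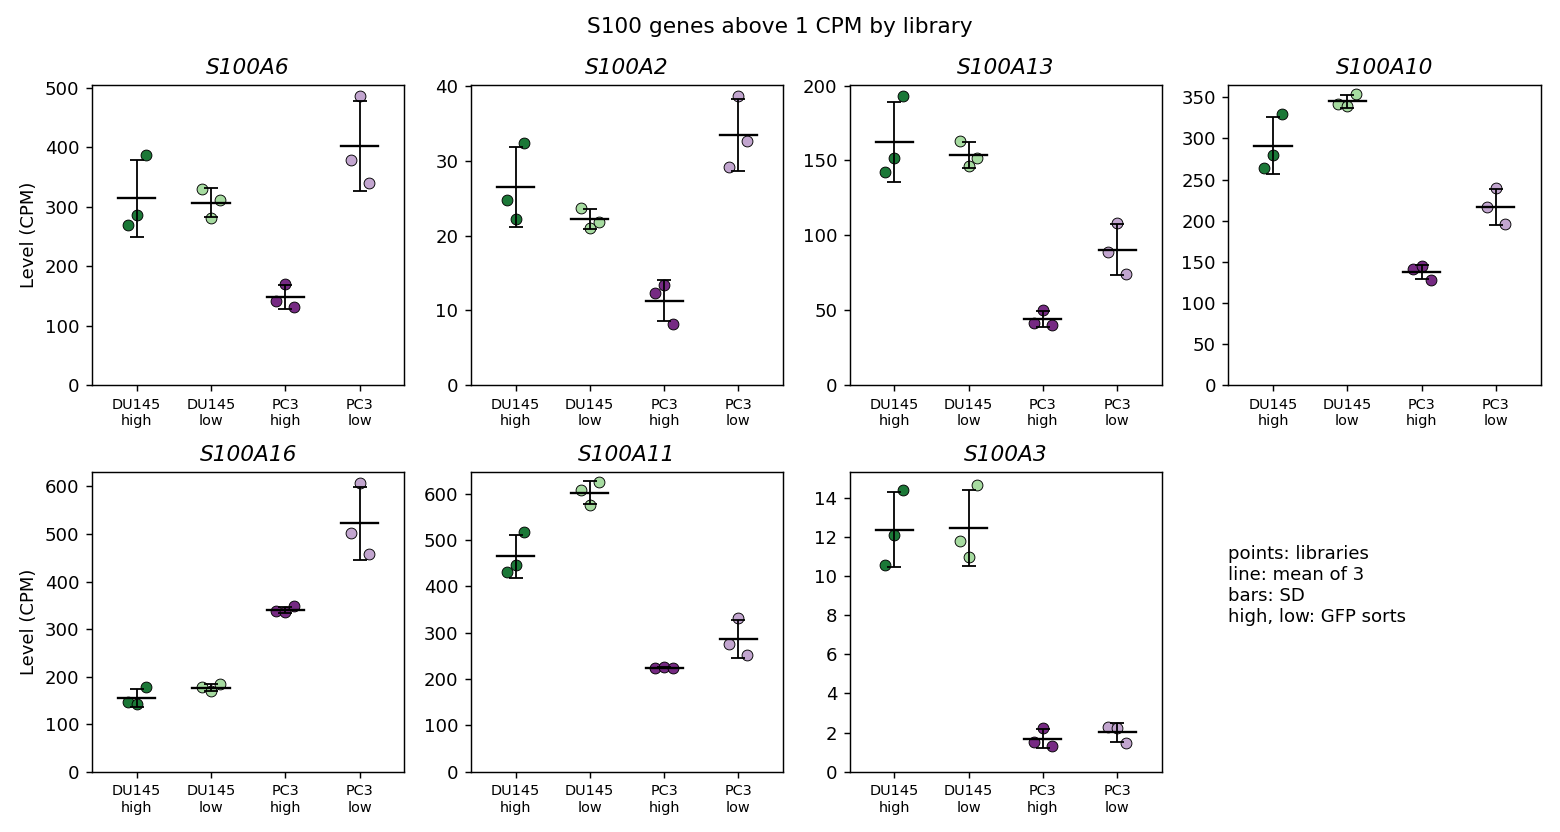
Levels of the 7 S100 genes above the minimum in CPM (vertical axes, linear, each from 0) in the 12 libraries; points are libraries, the line is the mean of 3 and bars are the SD. PC3 GFP high libraries lie below all PC3 GFP low libraries for every gene shown except S100A3, while in DU145 the sorts are separated only for S100A10 and S100A11.

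S100A6 (calcyclin, which binds annexins and the ubiquitin ligase adaptor CACYBP) had 142, 170 and 132 CPM in the PC3 GFP high libraries, against 379, 487 and 341 CPM in the PC3 GFP low libraries. The groups did not overlap. The log2 fold change was -1.44 ± 0.15 (2.70-fold lower, limma adjusted p = 4.57e-05). In DU145 the same gene had 269, 286 and 387 CPM in GFP high against 329, 281 and 311 CPM in GFP low libraries. These groups overlapped, and the log2 fold change of 0.02 ± 0.15 had a 95% interval of -0.31 to 0.34 (adjusted p = 0.943). The gene (ENSG00000197956) lies at chr1:153534599-153536244 on the minus strand of GRCh38.

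S100A10 (p11, which forms a tetramer with annexin A2 and helps hold plasminogen at the cell surface) had 141, 145 and 128 CPM in PC3 GFP high libraries and 216, 239 and 196 CPM in PC3 GFP low libraries. The sorts did not overlap, with a log2 fold change of -0.65 ± 0.09 (1.57-fold lower, limma adjusted p = 0.000526). In DU145 it had 264, 280 and 330 CPM in GFP high cells and 341, 340 and 354 CPM in GFP low libraries. Every DU145 GFP high library was below every GFP low library here too, but the difference of -0.25 ± 0.09 did not pass (adjusted p = 0.0598). It passed without DU145 GFP high replicate 3 (-0.34, adjusted p = 0.00797), without PC3 GFP low replicate 2 (-0.25, adjusted p = 0.0365) and without PC3 GFP low replicate 3 (-0.25, adjusted p = 0.0454). With the trend in GC content and length removed it was 0.012.

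S100A11 (calgizzarin, a partner of annexin A1 with roles in membrane repair) is the member that fell in both lines. In DU145 it had 431, 446 and 516 CPM in GFP high libraries against 607, 575 and 625 CPM in GFP low libraries. The sorts were separated, with a log2 fold change of -0.38 ± 0.10 (limma adjusted p = 0.0151), with means of 465 ± 46 and 602 ± 25 CPM in GFP high and GFP low cells. In PC3 it had 224, 225 and 224 CPM in GFP high libraries against 276, 331 and 252 CPM in GFP low libraries. The 3 PC3 GFP high libraries were nearly equal, the sorts did not overlap, and the log2 fold change was -0.34 ± 0.10 (1.27-fold lower, adjusted p = 0.0387). Neither call was firm. The DU145 call was lost without GFP high replicate 1 (-0.33, adjusted p = 0.0733), GFP high replicate 2 (-0.35, 0.0636), GFP low replicate 1 (-0.37, 0.0534) or GFP low replicate 3 (-0.35, 0.0668), and under quantile normalization (-0.17, 0.0615). The PC3 call was lost without any of the 3 PC3 GFP high libraries (adjusted p = 0.114, 0.104 and 0.101) and without PC3 GFP low replicate 1 (-0.36, 0.0814) or replicate 2 (-0.23, 0.122), and with equal medians (-0.30, 0.17), no minimum (0.0534), no variance trend (0.0855) or each line fitted alone (0.0823). It was also lost without DU145 GFP high replicate 2 or any DU145 GFP low library (adjusted p = 0.0547, 0.0606, 0.0506 and 0.0538), where the fold change itself stayed at -0.34.

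S100A2 (a mostly nuclear member that binds p53 and is known from basal epithelium) showed the largest log2 fold change of the 7 in PC3. It had 12.3, 13.4 and 8.17 CPM in PC3 GFP high libraries, against 29.1, 38.7 and 32.7 CPM in PC3 GFP low libraries. The sorts were far apart, with means of 11.3 ± 2.8 and 33.5 ± 4.8 CPM in GFP high and GFP low cells and a log2 fold change of -1.59 ± 0.19 (3.02-fold lower, limma adjusted p = 0.000116). In DU145 it had 24.8, 22.3 and 32.5 CPM in GFP high cells and 23.7, 21.0 and 21.9 CPM in GFP low libraries. The DU145 groups overlapped and the difference of 0.24 ± 0.19 did not pass (adjusted p = 0.343, 95% interval -0.17 to 0.65). Without DU145 GFP high replicate 3 it was 0.084 (adjusted p = 0.743), and with any 1 other DU145 library left out 0.20 to 0.36. The gene (ENSG00000196754) lies at chr1:153561108-153567890 on the minus strand of GRCh38.

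S100A13 (which takes part in the export of FGF1 and interleukin 1 alpha, proteins without a signal peptide) had 41.7, 49.9 and 39.8 CPM in PC3 GFP high libraries against 89.0, 108 and 73.9 CPM in PC3 GFP low libraries. The sorts did not overlap, and the log2 fold change was -1.03 ± 0.14 (2.05-fold lower, limma adjusted p = 0.000354). In DU145 it had 142, 152 and 193 CPM in GFP high cells and 163, 146 and 152 CPM in GFP low libraries, which overlapped (0.07 ± 0.14, adjusted p = 0.741). S100A13 is annotated as overlapping S100A1 on the opposite strand and AL162258.1 on its own strand. Its estimated counts were fractional in 10 of the 12 libraries, and whether counting used strand is not given in the sources used here, so its level is uncertain.

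S100A16 (a widely expressed member that can pair with S100A14) was the member whose level ordered the lines the other way. It had 337, 336 and 348 CPM in PC3 GFP high libraries against 502, 608 and 458 CPM in PC3 GFP low libraries. The GFP high libraries were close together and all below the GFP low ones (log2 fold change -0.61 ± 0.10, 1.52-fold lower, limma adjusted p = 0.00209). In DU145 it had 147, 143 and 178 CPM in GFP high cells and 178, 170 and 184 CPM in GFP low libraries. Those groups overlapped, and -0.19 ± 0.10 did not pass (adjusted p = 0.168), although it did without DU145 GFP high replicate 3 (-0.29, adjusted p = 0.0287).

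S100A3 (a zinc- and calcium-binding member best known from the hair cuticle) did not differ detectably between sorts. It had 1.5, 2.23 and 1.32 CPM in PC3 GFP high against 2.30, 2.26 and 1.46 CPM in PC3 GFP low libraries. In DU145 it had 10.6, 12.1 and 14.4 CPM in GFP high against 11.8, 10.9 and 14.6 CPM in GFP low libraries. The sorts overlapped in both lines, with log2 fold changes of -0.26 ± 0.25 in PC3 (95% interval -0.81 to 0.28, limma adjusted p = 0.611) and -0.01 ± 0.25 in DU145 (-0.56 to 0.53, adjusted p = 0.975). With 1 PC3 library left out the PC3 value ranged from -0.48 to -0.11, and none passed. At 103 summed counts in each PC3 sort, its interval still allows changes as large as those of S100A10 and S100A16.

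The 3 members under the minimum were near 0. S100A4 (metastasin, which binds non-muscle myosin IIA) had 3, 2 and 0 estimated counts in PC3 GFP high libraries and 9, 9 and 5 in PC3 GFP low libraries. The sums of 5 and 23 counts correspond to 0.0789 CPM in GFP high (exact Poisson 95% interval 0.0256 to 0.184) and 0.444 CPM in GFP low cells (0.281 to 0.666), intervals that cover counting error only. In the fit to all 18950 genes, in which 5.69% were called in PC3, the difference did not pass (limma adjusted p = 0.127), and none of the 3 genes passed in DU145 or for the difference between lines, where 15.4% and 8.93% of all genes were called. DU145 had 4, 2 and 4 counts of S100A4 in GFP high cells and 4, 1 and 17 in GFP low libraries, so GFP low replicate 3 held most of them. S100A4 and S100A3 overlap on the same strand, and reads from the shared part cannot be assigned by position alone. S100A14 (an epithelial member that pairs with S100A16) had 0 to 3 counts in every library. S100P (a RAGE ligand first found in placenta, on chromosome 4) had 0 counts in all DU145 GFP high and all PC3 GFP low libraries and 4 summed counts in each other group. A library's limit for a count of 0, taken as 3 counts, was 0.130 to 0.233 CPM.

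The sort effect differed between lines for 3 of the 7 genes. The difference, DU145 minus PC3, was 1.83 ± 0.27 for S100A2 (limma adjusted p = 0.000763), 1.45 ± 0.21 for S100A6 (adjusted p = 0.000816) and 1.10 ± 0.20 for S100A13 (adjusted p = 0.00319). Of all genes tested, 15.9% were called for this difference, 7.06% in that direction and 8.82% in the other. S100A10 (0.40 ± 0.13, adjusted p = 0.0537) and S100A16 (0.42 ± 0.14, adjusted p = 0.0659) did not pass. Both passed without PC3 GFP low replicate 3 (0.47 and 0.51, adjusted p = 0.0363 and 0.0354), and S100A10 also without DU145 GFP high replicate 1 (0.47, adjusted p = 0.0432). For S100A11, the gene called in both lines, the difference was -0.04 ± 0.13 with a 95% interval of -0.33 to 0.25.

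**Figure D2:**
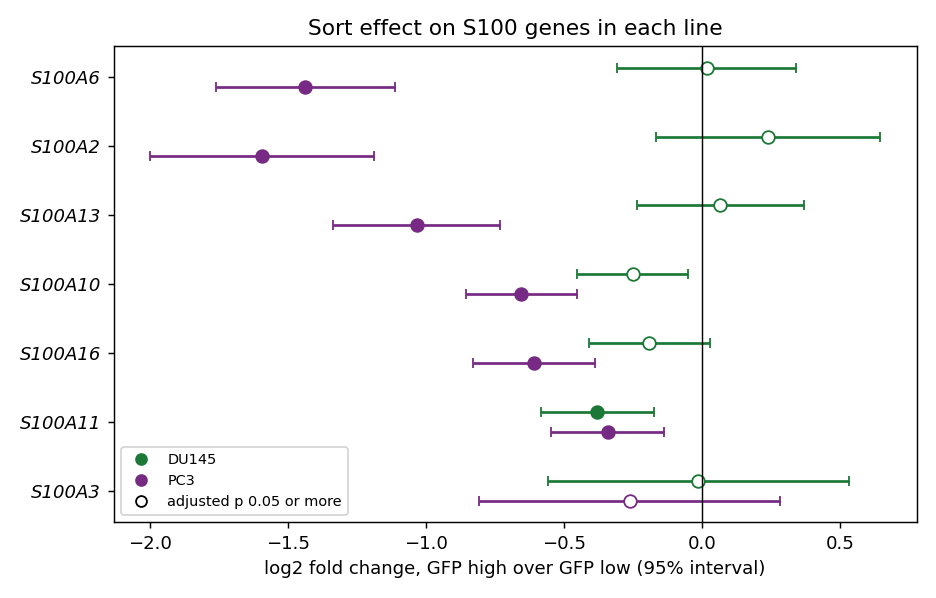
Log2 fold changes of GFP high over GFP low cells (horizontal axis) with 95% intervals for the 7 S100 genes, DU145 in green above PC3 in purple; open points did not pass an adjusted p of 0.05. S100A6, S100A2 and S100A13 show intervals that lie well apart between lines, at 0.02 and -1.44 for S100A6, while those of S100A11 coincide. The intervals of S100A10 nearly touch without overlap, with a lower end of -0.4517 in DU145 and an upper end of -0.4523 in PC3.

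The 7 genes had a GC content of 54.0 to 60.2% and a median transcript length of 856 bases, against 3334 bases over genes above the minimum. Across genes, the DU145 fold change followed GC content (Spearman rho -0.64 over 12510 genes, which are not independent and share the same libraries), with a median of 0.51 in the GC-poorest 20% and -0.26 in the richest. In PC3, rho was -0.11. The 211 genes within the members' range of GC and length had a median log2 fold change of -0.24 in DU145 and -0.16 in PC3, and 17.1% and 9.0% of them were called lower. With the trend in GC and length removed, S100A2 (0.46), S100A6 (0.29) and S100A13 (0.29) were called higher in DU145 GFP high cells (limma adjusted p = 0.0299, 0.00774 and 0.00772) and S100A11 (-0.19) stayed lower (adjusted p = 0.0118). Of all genes, 19.8% were called in DU145 in that fit, 10.6% higher and 9.13% lower, and 19.9% in PC3, 8.64% higher and 11.3% lower. In PC3 the same 6 genes stayed lower, each with a smaller change. S100A2 was at -1.51 (-1.59 as reported), S100A6 at -1.24 (-1.44) and S100A13 at -0.89 (-1.03). S100A10 was at -0.57 (-0.65), S100A16 at -0.51 (-0.61) and S100A11 at -0.19 (-0.34). So the size of the PC3 values, that of S100A11 among them, depended on this correction. The DU145 values of S100 genes depended on this correction and on the scaling, under which S100A6 was -0.076 with equal library medians and S100A13 -0.026. The split of all calls moved too. In DU145 it was 1647 higher and 1742 lower as reported and 1313 higher and 2305 lower with equal medians. In PC3 it was 522 and 660 as reported and 509 and 412 with equal medians. For the difference between lines it was 885 and 1105 as reported, 626 and 1428 with equal medians and 1660 and 1211 with the GC and length trend removed.

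**Figure D3:**
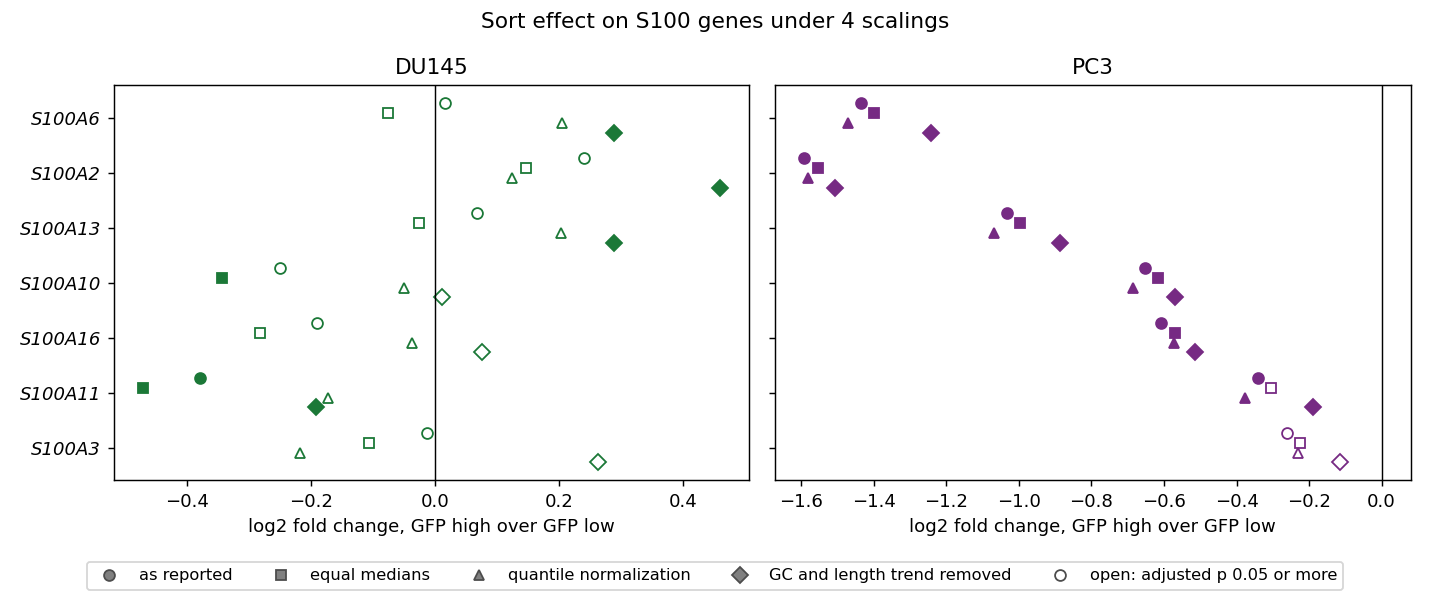
Log2 fold changes of GFP high over GFP low cells (horizontal axes, on different scales) in DU145 (left) and PC3 (right) under 4 ways of scaling; filled symbols passed an adjusted p of 0.05. In PC3 the symbols of a gene lie close together and all below 0, whereas in DU145 those of S100A3, S100A6, S100A10, S100A13 and S100A16 lie on both sides of 0.

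The PC3 calls of S100A2, S100A6, S100A10, S100A13 and S100A16 were kept under all 26 alternatives. Without PC3 GFP low replicates 2 and 3, where a single GFP low library remains, S100A6 was -1.37 ± 0.19 (limma adjusted p = 0.0012), S100A2 -1.40 ± 0.27 (0.0115) and S100A13 -1.03 ± 0.17 (0.00389). S100A10 was then -0.65 ± 0.12 (0.00963), S100A16 -0.56 ± 0.12 (0.0207) and S100A11 -0.30 ± 0.11 (0.186). Without DU145 GFP high replicates 1 and 2, the difference between lines was 2.14 for S100A2, 1.77 for S100A6 and 1.36 for S100A13, and it passed for S100A10 (0.59) and S100A16 (0.61) as well (adjusted p = 0.0336 and 0.0468). In that fit S100A11 no longer passed in DU145 (-0.22, adjusted p = 0.528).

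Between the lines, with both sorts averaged, 6 of the 7 genes were higher in DU145 and 1 was lower, where 77.5% of all genes were called, 38.3% higher and 39.2% lower in DU145. Library levels of the lines did not overlap for 5 of the 7, against 46.9% of all genes. S100A3 showed the largest difference, with 10.6 to 14.6 CPM in DU145 against 1.32 to 2.30 CPM in PC3 (log2 fold change 2.78 ± 0.18, limma adjusted p = 8.42e-09). S100A13 (1.33), S100A11 (1.06) and S100A10 (0.87) were higher in DU145 as well, and S100A16 was lower (-1.34 ± 0.07, adjusted p = 1.4e-09), with 143 to 184 CPM in DU145 against 336 to 608 CPM in PC3. S100A6 (0.35, adjusted p = 0.00853) and S100A2 (0.33, adjusted p = 0.0359) passed although the library ranges overlapped, with all PC3 GFP high libraries below every DU145 library and the PC3 GFP low libraries among or above them. The S100A2 call was lost without any 1 of 6 libraries: DU145 GFP high replicate 3 (0.25), DU145 GFP low replicates 1 (0.31) and 3 (0.33), PC3 GFP high replicate 3 (0.22), and PC3 GFP low replicates 1 (0.28) and 3 (0.32). It was also lost with no variance trend (adjusted p = 0.0541), and that of S100A6 under quantile normalization (0.17, adjusted p = 0.075). With equal medians the median of all genes was 0.13 (-0.01 as reported), and no S100 gene changed direction.

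Levels per kilobase used the length of a single annotated transcript per gene, so the order of genes depends on that choice. On this scale S100A11 was the most abundant S100 gene in DU145, at 782 ± 77 CPM per kb in GFP high cells and 1014 ± 42 CPM per kb in GFP low cells. S100A6 came next there (467 ± 95 and 456 ± 36 CPM per kb), followed in GFP high cells by S100A10 and S100A13, whose libraries overlapped, and then by S100A16, S100A2 and S100A3. In PC3 GFP high cells the order was S100A11 (378 ± 1 CPM per kb), S100A16 (297 ± 6), S100A6 (220 ± 30), S100A10 (115 ± 7), S100A13 (63.9 ± 7.8), S100A2 (11.3 ± 2.8) and S100A3 (1.97 ± 0.56), with no overlap between neighbours. In PC3 GFP low cells S100A6 (598 ± 113), S100A11 (482 ± 68) and S100A16 (456 ± 67) came first, and the libraries of each pair of neighbours among them overlapped. In every PC3 GFP high library S100A6 was below S100A16 on this scale.

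All members but S100P lie on chromosome 1, in 2 groups. S100A10 and S100A11 span 65.0 kb, and after a gap of 1487 kb the genes from S100A6 to S100A13 span 96.8 kb in the order S100A6, S100A4, S100A3, S100A2, S100A16, S100A14, S100A13. The PC3 values did not follow that order, since S100A3 and S100A16 (-0.26 and -0.61) lie between S100A6 and S100A13 (-1.44 and -1.03), and S100A2 beside S100A3 had -1.59. The 1 other gene of the table that reaches into the stretch from S100A6 to S100A13 is S100A1, a calcium-binding family member of heart and muscle. It did not pass, at 0.976 ± 0.198 CPM in PC3 GFP high and 1.38 ± 0.31 CPM in PC3 GFP low cells (-0.49, limma adjusted p = 0.382), nor in DU145 (0.15, adjusted p = 0.728). Between S100A10 and S100A6 lie 28 genes of the table, of which 3 were above the minimum: TCHH, HRNR and FLG, which encode large proteins of hair and epidermis that begin with an S100-like domain. HRNR had 0 counts in all 3 PC3 GFP high libraries and 0, 22 and 11 in PC3 GFP low libraries, and FLG 0 counts against 0, 9 and 13. Both passed as lower in PC3 (adjusted p = 0.0352 and 0.0382) on the counts of PC3 GFP low replicates 2 and 3, the libraries that stood apart, and replicate 1 was at 0 like the GFP high libraries. TCHH did not pass (adjusted p = 0.0715). Of the 22 other genes above the minimum within 1 Mb beyond S100A13, 1 fell and 0 rose in PC3 by limma, with 7 at an unadjusted p under 0.05. Of the 23 within 1 Mb before S100A10, 0 were called in PC3, with 2 at an unadjusted p under 0.05.

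**Figure D4:**
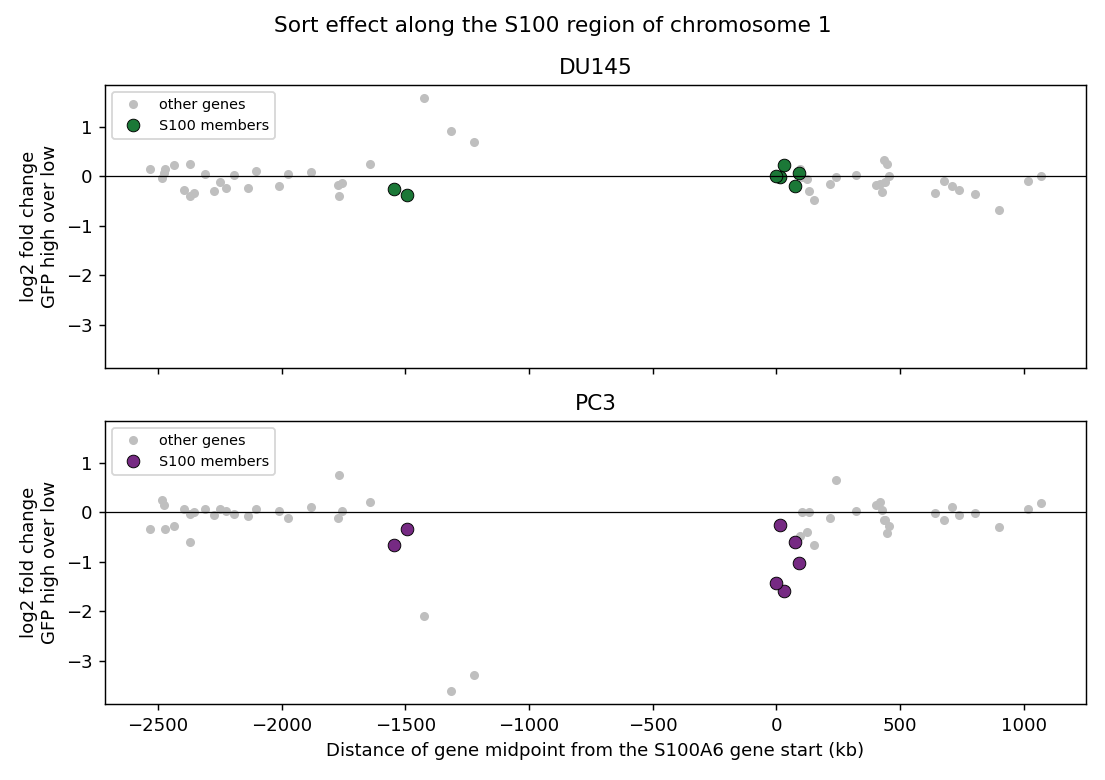
Log2 fold changes of GFP high over GFP low cells (vertical axes) for genes above the minimum on chromosome 1 by distance from the S100A6 gene (horizontal axis, kb), in DU145 (top) and PC3 (bottom); large points are S100 members and grey points are other genes. In PC3 the S100 members lie below most flanking genes, which sit around 0, and the 3 grey points furthest below 0 are TCHH, HRNR and FLG.

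The 250 bases before the RefSeq starts (GRCh38.p14) were searched for 4 short motifs on both strands, as 6 of the members fell in PC3. All 10 members had a window, 14 windows in all because some genes have several starts. TCF/LEF sites, through which β-catenin acts, were searched as CTTTGAA or CTTTGAT as well as CTTTGTA or CTTTGTT. They were found in 0 of the 14 windows, against 12% of 35116 windows of all genes. The GC box GGGCGG was in 6 of 14 (42.6% of all), the AP-1 motif TGANTCA in 2 (6.57%) and a TATA motif (TATAAA or TATAAG) in 5 (14.2%). The AP-1 windows were those of S100A2 and S100A3, and the TATA windows those of S100A6, S100A13, S100A4, S100A14 and S100P. S100A3 was not called in PC3, and S100A4, S100A14 and S100P were below the minimum. A match is only a run of letters in this window, and its absence says nothing of more distant elements. Shown are the windows of S100A6 and S100A2, the 2 genes with the largest PC3 changes, and of S100A10 and S100A11, both annexin partners, read 5′ to 3′ on the gene's own strand (minus for all 4) with motif matches in capitals. S100A6 (chr1:153535992-153536241) has GC boxes and a TATA match; S100A2 (chr1:153565845-153566094, its first start) an AP-1 match; S100A10 (chr1:151993860-151994109) and S100A11 (chr1:152037005-152037254) a GC box each.
S100A6: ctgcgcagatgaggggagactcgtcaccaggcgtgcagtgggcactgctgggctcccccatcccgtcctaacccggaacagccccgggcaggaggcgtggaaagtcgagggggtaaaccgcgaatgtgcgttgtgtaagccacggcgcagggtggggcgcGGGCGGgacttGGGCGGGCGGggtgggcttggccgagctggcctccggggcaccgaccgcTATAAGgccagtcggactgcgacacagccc
S100A2: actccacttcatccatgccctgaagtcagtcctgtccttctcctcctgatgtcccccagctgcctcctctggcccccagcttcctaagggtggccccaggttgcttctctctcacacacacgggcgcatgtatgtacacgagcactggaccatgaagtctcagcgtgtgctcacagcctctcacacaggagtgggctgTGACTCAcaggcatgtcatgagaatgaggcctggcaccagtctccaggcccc
S100A10: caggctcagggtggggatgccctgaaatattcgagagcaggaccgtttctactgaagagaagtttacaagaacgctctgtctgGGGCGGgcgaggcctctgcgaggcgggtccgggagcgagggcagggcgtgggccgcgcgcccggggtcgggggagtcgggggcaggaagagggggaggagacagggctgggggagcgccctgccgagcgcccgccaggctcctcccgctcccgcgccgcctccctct
S100A11: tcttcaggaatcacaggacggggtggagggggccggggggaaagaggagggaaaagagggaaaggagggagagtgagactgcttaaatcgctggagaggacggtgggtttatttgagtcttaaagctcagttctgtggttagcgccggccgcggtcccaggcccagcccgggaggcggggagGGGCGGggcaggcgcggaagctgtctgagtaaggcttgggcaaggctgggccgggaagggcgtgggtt
The window of S100A6 holds 3 GC box matches, 2 of which overlap, and a TATAAG at position -30 from the start, and that of S100A2 holds TGACTCA at position -52. The second start of S100A2 holds none of the 4 motifs.

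Among genes tied to S100 function, 4 of 7 annexin genes above the minimum were lower and 0 higher in DU145 GFP high cells, with 5 at an unadjusted p under 0.05. Of all genes, 13.9% were lower and 13.1% higher in DU145, and 5.27% lower and 4.17% higher in PC3. There, 1 annexin gene was lower and 1 higher. Under quantile normalization the DU145 counts of annexin genes were 1 lower and 1 higher. ANXA2, the partner of S100A10, was not called in PC3, with 985 ± 62 CPM in GFP high cells and 1097 ± 98 CPM in GFP low cells (-0.15 ± 0.08, limma adjusted p = 0.301), while S100A10 itself fell there. ANXA4 fell in PC3 (-0.51, adjusted p = 0.00096) and ANXA6 rose (2.20, adjusted p = 6.15e-05), at 2.42 ± 0.56 CPM in GFP high cells and 0.545 ± 0.230 CPM in GFP low cells. In DU145, ANXA1, the partner of S100A11, fell to 0.359 ± 0.059 CPM in GFP high against 1.63 ± 0.32 CPM in GFP low cells (-2.18, adjusted p = 1.43e-05). Its GFP high level lay below 1 CPM and near the limit for a count of 0, which was 0.181 to 0.233 CPM in those libraries. The ANXA1 call thus rests on few counts. ANXA5, ANXA7 and ANXA11 fell in DU145 by 0.26, 0.31 and 0.41 on the log2 scale. These last calls were lost without DU145 GFP high replicate 1 (-0.19, -0.28 and -0.34, adjusted p = 0.138, 0.0561 and 0.102), and for ANXA5 and ANXA11 without other DU145 libraries too. Of 19 measured intracellular binding partners, 3 were higher and 4 lower in DU145 and 0 were called in PC3 by limma, where 4 had an unadjusted p under 0.05. Voom and equal medians also gave 0 in PC3, quantile normalization 1 lower, and removal of the GC and length trend 2 higher and 1 lower. In DU145 the counts of binding partners were 3 higher and 2 lower under quantile normalization and 1 and 4 with that trend removed. They were 4 and 4 with voom and 3 and 4 with equal medians. MYH9, the heavy chain of the myosin bound by S100A4, fell in DU145 (-0.42, adjusted p = 0.00286) and MDM2, the p53 ubiquitin ligase, rose (0.99, adjusted p = 0.00699). Of 8 measured genes for receptors and cell-surface partners, 1 was higher and 4 lower in DU145, led by FGFR1 (-0.61, adjusted p = 0.000219), and 1 was lower in PC3. That gene was PLAU, the urokinase that activates plasminogen (97.0 ± 7.0 CPM in GFP high cells and 152 ± 16 CPM in GFP low cells, -0.65, adjusted p = 0.000354). The DU145 counts of surface genes were 0 higher and 4 lower with equal medians and 0 and 3 with voom. They were 1 and 3 under quantile normalization and 2 and 3 with the GC and length trend removed. Removal of that trend moved the DU145 median of surface genes from -0.42 to -0.11. Of 19 other EF-hand genes, 2 were higher and 3 lower in DU145. Quantile normalization gave 2 higher and 0 lower there, and equal medians and voom each 2 and 5. Removal of the GC and length trend gave 2 and 2. The list medians in PC3 were -0.13 for annexins, -0.02 for binding partners, -0.03 for surface genes and -0.10 for other EF-hand genes, beside -0.65 for the S100 genes and -0.02 for all genes. In DU145 they were -0.31 for annexins, 0.08 for binding partners, -0.42 for surface genes and -0.05 for other EF-hand genes, beside -0.01 for the S100 genes and -0.01 for all genes.

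Across the 12 libraries, with each gene centred within its line, the patterns closest to S100A2 among 9072 genes compared, S100 members aside, were those of TRNP1, BTBD2 and FGD1, with root mean square differences of 0.13, 0.20 and 0.23 on the log2 scale, against a median of 0.63 over genes. Among members, S100A6 (0.17) and S100A13 (0.26) were also close to it. TRNP1, BTBD2 and FGD1 had PC3 log2 fold changes of -1.49, -1.40 and -1.31, values set by their choice as nearest to S100A2. For S100A11, the nearest were PTRF, DBNL and CD99 (0.03, 0.04 and 0.04, median over genes 0.24). PTRF encodes cavin, which shapes caveolae, and its log2 fold changes were -0.37 in DU145 and -0.39 in PC3, those of DBNL -0.36 and -0.39 and those of CD99 -0.36 and -0.37, values that the choice by likeness fixes.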

How the data were processed

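Total RNA from 12 sorted samples was sequenced, and group membership follows the labels. STAR and DESeq2 appear in the submitters' processing notes with no version. Sources used here name neither a genome build nor a counting method. The authors deposited log2 normalized values, one per gene and library. Their lowest values and steps showed log2 CPM with an offset of 0.5 counts, from which counts were estimated; in the median library 86.9% came out whole to within 0.01.

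Genes with a log2 value of at least 0 (1 CPM) in at least 3 libraries were kept (12527). They were tested with limma 3.58.1 under R 4.3.3 (linear models by lmFit, eBayes with a mean-variance trend), as 4 group means with 8 residual degrees of freedom, two-sided, Benjamini-Hochberg adjusted at 0.05. The 3 members below the minimum come from the fit to all genes. The main settings were run on simulated data with independent noise and 200 changed genes per line. They recovered 44.1% of 1.5-fold and 93.4% of 4-fold changes in DU145, with 4.6% of calls false. In PC3 the shares were 52.9%, 90.9% and 6.1%. The simulation held no GC trend and no library that stood apart, so it does not cover these. Transcript length and GC content come from GENCODE 29, with a single transcript chosen per gene. The RefSeq promoter table gave the sequences.

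Members, lists and alternatives were chosen with earlier results of these data known. All 10 members are reported, with up to 4 genes per other list and line by smallest p, and for likeness the 3 nearest genes with a mean log2 value of at least 3. FLG, HRNR and TCHH are named by position. The PC3 calls in the list of other EF-hand genes are not reported here.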

Additional observations from a re-analysis of the deposited data

Results flagged for a closer look

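S100A2, S100A6 and S100A13 had different sort effects in the 2 lines by a test of the difference itself (DU145 minus PC3: 1.83, 1.45 and 1.10 on the log2 scale, limma adjusted p = 0.000763, 0.000816 and 0.00319). In PC3 all 3 GFP high libraries lay below all 3 GFP low libraries for each of these genes, and in DU145 the libraries overlapped. No cause was tested.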

How the results depend on the processing

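With 1 library left out in turn, the count of S100 genes called ranged from 0 to 3 in DU145 (1 as reported) and from 3 to 5 for the difference between lines (3 as reported), and of all genes from 896 to 5597 in DU145 (3389), 660 to 1492 in PC3 (1182) and 1145 to 3661 for the difference (1990). Without both DU145 GFP high replicates 1 and 2, 0 S100 genes were called in DU145 and 5 for the difference, beside 170 and 649 of all genes; the lone remaining library was assumed to vary like the others. Leaving out PC3 GFP low replicates 2 and 3 together, the counts were 2 S100 genes in DU145, 410 of all genes in PC3 and 1188 for the difference. Both were chosen with earlier results of these data known. Under quantile normalization 0 S100 genes were called in DU145 and 5 for the difference, and 2252 of all genes in DU145. At an adjusted p under 0.01 the counts were 0 in DU145, and 784, 526 and 708 of all genes in DU145, PC3 and the difference. With a minimum of log2 4, or with equal medians, 2 were called in DU145. With the GC and length trend removed, 4 S100 genes were called in DU145 and 5 for the difference, and 2497 of all genes in PC3, and with the replicate block added 4, 5, 2769 in PC3 and 3321 for the difference.

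The direction changed for S100A3 in DU145 (0.26 with the GC and length trend removed, also with the block; 0.22 without both DU145 GFP high libraries; -0.13 to 0.11 with 1 library left out), S100A6 (-0.076 with equal medians; -0.14 to 0.12 with 1 left out), S100A10 (0.012 with the trend removed, also with the block), S100A13 (-0.026 with equal medians; -0.064 to 0.16 with 1 left out) and S100A16 (0.076 with the trend removed, also with the block; 0.0066 without both DU145 GFP high libraries). The S100A11 difference between lines was 0.20 under quantile normalization, 0.12 without both DU145 GFP high libraries and -0.15 to 0.051 with 1 left out. The cause was not tested.

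Same-numbered libraries of the 2 sorts had correlated deviations of -0.02, 0.09 and 0.21 in DU145 and 0.06, 0.20 and 0.14 in PC3. Every PC3 library correlated best with its own number, as did DU145 GFP high replicates 2 and 3. DU145 GFP high replicate 1 correlated best with DU145 GFP low replicate 2 (0.18). The numbers were not taken as pairing the samples in the main fit. With the replicate block, 2 S100 genes were called in DU145, 6 in PC3 and 5 for the difference, beside 4842, 1551 and 3321 of all genes; S100A10 in DU145 and S100A10 and S100A16 for the difference then passed. For S100A4, S100A14 and S100P, counts of 0 to 17 per library limit any comparison.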
